A study of Rattus norvegicus with 12 samples.

Results

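Left atrial transcriptomes of saline-treated spontaneously hypertensive rats (SHRs) were set against those of saline-treated Wistar-Kyoto (WKY) rats, the normotensive control strain of the study. The comparison holds 6 of the 12 libraries of the series, chosen by library name, 3 named SHR and 3 named WKY, and 13794 genes had enough reads to be tested. The study asked how hypertension changes left atrial transcripts and used this contrast for that question. It further compared treatment with an angiotensin receptor blocker or a neprilysin inhibitor combination. All rats were male and 14 weeks old at purchase, each group held 3 animals, and both groups received saline at 7.5 ml/kg/day for 4 weeks. The other 6 libraries came from SHRs given valsartan at 30 mg/kg/day (ARB) or sacubitril/valsartan at 60 mg/kg/day (ARNI) for 4 weeks, and their values stand beside the comparison without a test. The labels conflict on strain. The title of each library named SHR opens with the WKY strain, each library named WKY is titled as hypertensive, and the strain field gives Wistar-Kyoto for all 12. Groups here follow the library names.

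The libraries held 11252361 to 11730665 estimated reads in the WKY group and 12683159 to 14953507 in the SHR group. Levels are given as CPM, the read count scaled to a common library total, and are not corrected for gene length, so they are compared between libraries and never between genes. At this depth 3 reads correspond to 0.201 to 0.267 CPM, and lower levels cannot be told from none.

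Atrial and ventricular muscle cells contract with different regulatory and essential myosin light chains, and the light chains therefore report which chamber a piece of rodent heart came from. The atrium is also an endocrine tissue that stores and releases atrial natriuretic peptide. Beside muscle cells it holds endocardium, vascular endothelium, fibroblasts, macrophages, nerve endings, cells of the conduction system and an outer sheet of epicardium, each with marker genes of its own.

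The light chains went against the tissue label of the WKY libraries. Myl7, the atrial regulatory light chain, stood at 15.9, 3.3 and 0.889 CPM in the 3 WKY libraries and at 10641, 4478 and 9152 CPM in the SHR arm (log2 fold change 10.09, SE 1.22, adjusted p = 0.00585 by edgeR's quasi-likelihood test). Myl4, the atrial essential light chain, stood at 3.58, 6.87 and 2.49 CPM against 9330, 4032 and 8731 CPM (log2 fold change 10.59, SE 0.64, adjusted p = 0.00146). The groups did not overlap at either gene, and both defining atrial light chains stood at or below 15.9 CPM in every library labelled as WKY left atrium.

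Myl2, the ventricular regulatory light chain, stood at 3737, 3776 and 3489 CPM in the WKY group and at 0.736, 2298 and 0.135 CPM in the SHR arm (log2 fold change -2.32, SE 2.42, adjusted p = 0.504). Myl3, the ventricular essential light chain, stood at 7194, 7006 and 7632 CPM against 11.8, 4171 and 10.1 CPM (log2 fold change -2.44, SE 2.01, adjusted p = 0.398). SHR replicate 2 thus carried both sets of light chains, whereas SHR replicates 1 and 3 carried the atrial set with at most 11.8 CPM of a ventricular light chain. Without SHR replicate 2 the log2 fold change was -13.16 for Myl2 (adjusted p = 1.88e-05) and -9.54 for Myl3 (adjusted p = 6.8e-06).

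Among the treated SHRs, ARNI replicate 2 had the ventricular pattern, with 9.67 CPM of Myl7, 20.9 CPM of Myl4, 4161 CPM of Myl2 and 8440 CPM of Myl3. ARB replicate 3 carried both sets, with 5209 CPM of Myl3. In this contrast, strain, hypertension and the chamber content of the libraries cannot be told apart. Every gene group below is read beside that fact. In bulk tissue, fewer cells of a type and less RNA per cell cannot be told apart either.

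**Figure D1:**
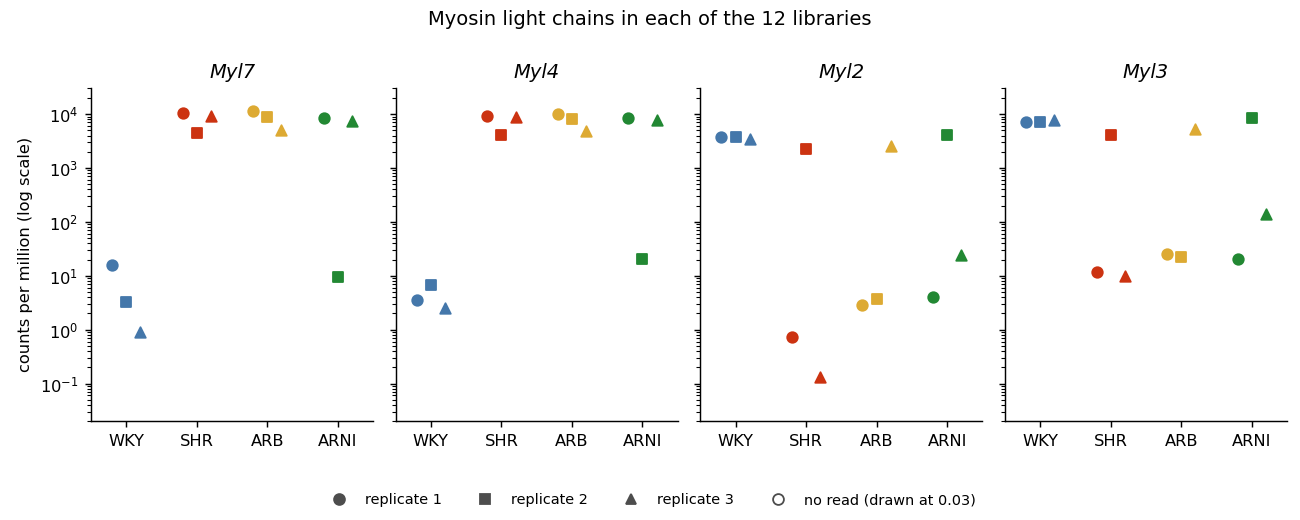
Levels of 4 myosin light chains in each of the 12 libraries, as CPM on a log axis, by group, with a marker shape for each replicate. The 3 WKY libraries and ARNI replicate 2 sit at or below 20.9 for Myl7 and Myl4, and SHR replicate 2 sits near the WKY libraries for Myl2 and Myl3 while replicates 1 and 3 lie at or below 11.8.

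The promoters of Myl7, Myl4, Nppa and Bmp10, which passed the test between the groups, and of Myl3, which did not, are shown. The atrial genes were all higher in the SHR group, Bmp10 unevenly so among its libraries, and Myl3 marks the opposite chamber. Each line gives the 250 bases before the transcription start, 5′ to 3′, from RefSeq on GRCr8. Capitals mark matches, on either strand, to 6 words. The word of the TATA box was TATAAA. Those of the GATA factors were AGATAA for the first form and TGATAA for the second. The core of the T-box factors was AGGTGT. The NK2 factors were searched by AAGTGG as their site. The E-box searched was CAGCTG in this form. AGATAA and TGATAA share their last letters, so they mark the same kind of site, and a match is a description of letters and not a site.
Myl7 (chr14:84996625-84996874, minus strand): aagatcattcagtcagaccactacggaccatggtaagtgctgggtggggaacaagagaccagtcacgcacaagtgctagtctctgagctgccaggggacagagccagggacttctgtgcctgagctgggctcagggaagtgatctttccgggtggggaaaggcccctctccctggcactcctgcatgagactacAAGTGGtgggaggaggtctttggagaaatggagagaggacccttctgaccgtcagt
Myl4 (chr10:89975900-89976149, plus strand): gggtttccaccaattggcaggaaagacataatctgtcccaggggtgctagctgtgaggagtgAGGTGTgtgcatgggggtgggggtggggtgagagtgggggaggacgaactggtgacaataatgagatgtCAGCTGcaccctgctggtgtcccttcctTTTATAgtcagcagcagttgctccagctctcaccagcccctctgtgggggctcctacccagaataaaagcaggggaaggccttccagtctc
Nppa (chr5:163711934-163712183, plus strand): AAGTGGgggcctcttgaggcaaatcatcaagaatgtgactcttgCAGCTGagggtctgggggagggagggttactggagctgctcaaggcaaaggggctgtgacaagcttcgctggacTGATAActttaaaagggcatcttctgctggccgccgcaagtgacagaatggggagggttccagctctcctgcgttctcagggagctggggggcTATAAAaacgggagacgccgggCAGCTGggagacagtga
Bmp10 (chr4:121429125-121429374, plus strand): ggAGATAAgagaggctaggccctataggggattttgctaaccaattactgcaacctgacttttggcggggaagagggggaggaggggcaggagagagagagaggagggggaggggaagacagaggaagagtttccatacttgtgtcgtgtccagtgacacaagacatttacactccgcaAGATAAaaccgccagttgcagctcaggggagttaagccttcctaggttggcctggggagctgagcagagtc
Myl3 (chr8:119616844-119617093, plus strand): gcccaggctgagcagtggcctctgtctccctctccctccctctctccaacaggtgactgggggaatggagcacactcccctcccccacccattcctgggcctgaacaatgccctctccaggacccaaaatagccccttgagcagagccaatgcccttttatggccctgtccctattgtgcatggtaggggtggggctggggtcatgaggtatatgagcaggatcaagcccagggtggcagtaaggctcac

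Nppa, which encodes atrial natriuretic peptide, held a TATA box 39 bases before its start and a TGATAA word 132 bases before it. Bmp10, an atrial growth factor of the TGF-beta superfamily, held AGATAA words 248 and 71 bases before its start. Myl4 held AGGTGT at 188 bases, CAGCTG at 119 bases and TATAAA on the opposite strand at 91 bases, and Myl7 held only AAGTGG at 56 bases. None of the 6 words lay in the Myl3 window. Over the 27457 promoters of the RefSeq table, TATAAA was found in 13.1%, AGATAA in 10%, TGATAA in 7.87%, AGGTGT in 11.4%, AAGTGG in 13.7% and CAGCTG in 11.9%. Over the 10832 promoters of genes tested here the shares were 6.57%, 5.57%, 3.91%, 9.37%, 13.6% and 12.5% in the same order. Promoters of Myl2 and Sln were not used here.

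Genes were called differentially expressed (DEGs) where the groups differed by 1 or more on the log2 scale, in either direction, and the adjusted p did not exceed 0.05. There were 1226 DEGs, or 8.89% of the genes tested, 764 higher in the SHR group (5.54%) and 462 lower (3.35%). By edgeR, 5428 of the 13794 genes tested had an unadjusted p under 0.05. The counts of each gene list below are read beside these values, and a short list without a call says little about its members. At all 1226 the groups did not overlap, as was also the case at 47.4% of all genes tested (24.6% with SHR above and 22.8% with SHR below). SHR replicate 2 was the lowest of the SHR libraries at 562 of the 764 higher DEGs (73.6%) and the highest at 313 of the 462 lower DEGs (67.7%). Leaving it out gave 2205 DEGs, 1109 higher (7.9% of the genes then tested) and 1096 lower (7.81%), of which 1186 were shared with the 1226. DESeq2 called 10.4% of the genes it tested, 5.77% higher and 4.63% lower. By edgeR, leaving out SHR replicate 1 gave 577 DEGs, and leaving out SHR replicate 3 gave 1147, 662 higher and 485 lower. Leaving out a WKY library gave 393, 353 and 348 for replicates 1, 2 and 3. Relative to library totals alone the log2 fold changes of all genes had a median of 0.15, beside 0.01 after scaling, and without scaling the split was 985 higher and 363 lower.

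Atrial marker genes were higher in the SHR group almost throughout. Of 20 tested, 16 rose and none fell, with a median log2 fold change of 2.19 beside 0.01 for all genes. Leaving out a single library left 9 to 16 of them called, 10, 9 and 11 without WKY replicates 1, 2 and 3. The summed level of the list was 4118 to 4806 CPM in the WKY group and 37935 to 98298 CPM in the SHR group. Nppa stood at 32.5, 129 and 276 CPM against 53632, 17946 and 38417 CPM (log2 fold change 7.82, SE 1.02, adjusted p = 0.00703).

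Sln, which encodes sarcolipin, an inhibitor of the sarcoplasmic calcium pump, stood at 0.426, 0.261 and 0.444 CPM against 1736, 668 and 1137 CPM (log2 fold change 11.43, SE 0.54, adjusted p = 0.00114). Mybphl, a myosin-binding protein of atrial muscle, had 2 reads in the whole WKY group against 825, 384 and 791 CPM, a ratio of 11749 with a 95% exact interval of 3252 to 97018 for counting error only (adjusted p = 0.00114). Pam, the enzyme that amidates secreted peptides and lies in the membrane of atrial granules, stood at 1487, 1549 and 1695 CPM against 11549, 5216 and 10201 CPM (log2 fold change 2.36). In each of these genes all 3 SHR libraries lay above all 3 WKY libraries, with SHR replicate 2 the lowest of the SHR libraries.

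The atrial markers that were not called included Gja5, a connexin, Hey1, a transcriptional repressor, and Kcna5, a potassium channel, with log2 fold changes of -0.03, -0.66 and -1.76, of which that of Gja5 was 0.08 by library totals. Kcna5 was lower by DESeq2 (log2 fold change -1.77, adjusted p = 0.00899) and without SHR replicate 2 (-2.48, adjusted p = 0.00602). Hey1 was lower without SHR replicate 2 (-1.27, adjusted p = 0.0311). Bmp10 differed widely among the SHR libraries, at 933, 186 and 1.02 CPM in replicates 1, 2 and 3, with 1 read in the WKY group (adjusted p = 0.0319). Hamp, the iron-regulating hormone hepcidin, followed the Bmp10 order, at 1245, 937 and 80.3 CPM in the SHR group against 2.47, 1.39 and 2.93 CPM in the WKY group (log2 fold change 8.27, SE 1.19, adjusted p = 0.00913). The 3 libraries labelled as SHR left atrium thus differed among themselves at both genes, with replicate 3 the lowest, and whether this bears on the other differences was not tested.

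**Figure D2:**
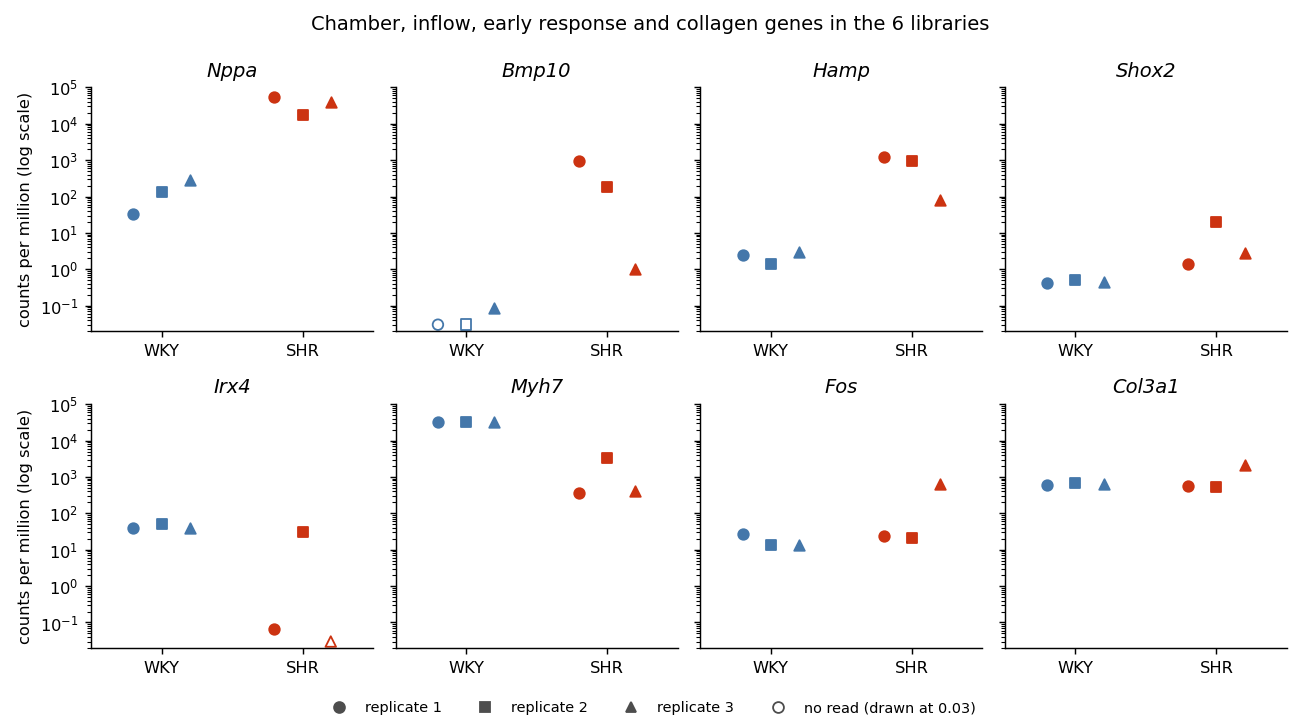
Levels of 8 genes in the 3 WKY and 3 SHR libraries, as CPM on a log axis, with a marker shape for each replicate and open markers for no read. Bmp10 and Hamp are lowest in SHR replicate 3 among the SHR libraries, Shox2 is highest in SHR replicate 2, Irx4 is near the WKY level only in SHR replicate 2 among the SHR libraries, and Fos and Col3a1 are highest in SHR replicate 3.

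Ventricular marker genes mostly had fold changes below 0, but few passed the test with SHR replicate 2 included. Of 17 tested, 3 fell and none rose (median log2 fold change -1.78), and without SHR replicate 2 the number that fell was 13. Myh7, the slow beta myosin heavy chain, stood at 32282, 32744 and 32130 CPM in the WKY group and at 357, 3319 and 402 CPM in the SHR arm (log2 fold change -4.65, SE 1.04, adjusted p = 0.0275). Cd36, a fatty acid transporter that is mutated in several SHR colonies, stood at 1496, 1382 and 1584 CPM against 68.6, 184 and 70.8 CPM (log2 fold change -3.89, SE 0.48, adjusted p = 0.006). Irx5, an Iroquois homeobox gene of the ventricular wall, stood at 20.3, 24.7 and 18.1 CPM against 4.95, 7.1 and 5.35 CPM (log2 fold change -1.99, SE 0.21, adjusted p = 0.00433). ARNI replicate 2, with ventricular light chains, lay between the groups at all 3 genes. It had 5907 CPM of Myh7, 285 CPM of Cd36 and 14.4 CPM of Irx5.

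Irx4, the Iroquois factor that defines ventricular identity, was at 40.6, 49.7 and 38.8 CPM in the WKY group and at 0.0669, 31.1 and 0 CPM in the SHR arm (log2 fold change -2.14, SE 1.49, adjusted p = 0.32). Hey2, a repressor of atrial genes in ventricular muscle, was at 19.1, 20.9 and 16.9 CPM against 1.54, 14.1 and 2.17 CPM (log2 fold change -1.78, adjusted p = 0.147). In both genes SHR replicate 2 lay close to the WKY libraries and the other 2 SHR libraries far below, and without replicate 2 both passed the test (adjusted p = 2.37e-05 and 9.24e-05). Myh6, the fast alpha heavy chain that both chambers of the rat use, did not pass the test, at 26469, 26700 and 23538 CPM against 31027, 35555 and 34990 CPM (log2 fold change 0.27, adjusted p = 0.484).

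Among 64 sarcomere genes tested 9 were higher and 5 lower, and the median log2 fold change was -0.20. Beside the light chains above, Myl1, the essential light chain of fast skeletal muscle and of the developing heart, stood at 0.597, 0.348 and 0.444 CPM against 11.6, 10.1 and 9.28 CPM (log2 fold change 4.32, SE 0.26, adjusted p = 0.00148). Acta1, skeletal alpha actin, stood at 1380, 1583 and 1462 CPM against 42.7, 248 and 20.9 CPM (log2 fold change -3.91, SE 0.96, adjusted p = 0.0352). Pdlim5 and Xirp2, proteins of the Z disc and the intercalated disc, were lower by smaller amounts, with log2 fold changes of -1.18 and -1.15. No sarcomere gene was called lower without SHR replicate 1 or with any 1 WKY library left out, while 12 were without SHR replicate 2.

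Of 41 heart transcription factors tested 7 were higher and 2 lower. Tbx5, the T-box factor of atrial and left ventricular muscle, stood at 33.4, 32.8 and 31 CPM in the WKY group against 352, 164 and 277 CPM in the SHR group (log2 fold change 2.88, SE 0.26, adjusted p = 0.00316). Nr2f2, the orphan nuclear receptor COUP-TFII that sets atrial identity, stood at 19, 20.3 and 19.7 CPM against 109, 42 and 115 CPM (log2 fold change 2.02, SE 0.34, adjusted p = 0.0136), and its relative Nr2f1 rose by 1.64 on the log2 scale. No member of the GATA, MEF2 and NK2 group was a DEG by edgeR or DESeq2 among 10 tested, and 2 had an unadjusted p under 0.05. Nkx2-5, the general heart factor of that group, was at 128, 125 and 125 CPM against 247, 176 and 198 CPM, below the fold required (log2 fold change 0.58, adjusted p = 0.0329). Meis2, a homeobox cofactor, fell by 1.05 on the log2 scale (adjusted p = 0.0256). The 7 higher calls became 3, 4 and 4 without WKY replicates 1, 2 and 3 and 10 without SHR replicate 2, and the lower calls became 9 without SHR replicate 2 and 1 with any 1 WKY library or SHR replicate 1 left out.

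In the natriuretic peptide and cGMP system 4 of 21 genes tested were higher and 1 lower. The 4 higher calls became 1, 0 and 1 without WKY replicates 1, 2 and 3 and 2 without SHR replicate 1. Corin, the protease that cuts the precursor of atrial natriuretic peptide, stood at 263, 249 and 229 CPM against 816, 446 and 675 CPM (log2 fold change 1.25, SE 0.21, adjusted p = 0.0134). Npr3, the clearance receptor, which is also an endocardial marker, stood at 81.6, 75 and 45.8 CPM against 575, 165 and 586 CPM (log2 fold change 2.56, SE 0.48, adjusted p = 0.0181). Mme, which encodes neprilysin, the peptide-degrading enzyme that sacubitril inhibits, was the lower gene, at 2.3, 2.09 and 2.4 CPM against 0.201, 0.394 and 1.22 CPM (log2 fold change -2.03, SE 0.55, adjusted p = 0.045). The groups did not overlap at Mme, but its levels were low, and the call was lost with any 1 WKY library, SHR replicate 1 or SHR replicate 2 left out, with library totals, with no filter on low counts, with a replicate block and with all 12 libraries in the fit. Without SHR replicate 2 the log2 fold change of Mme was -1.85 (adjusted p = 0.0523). Prkg2, a cGMP-dependent kinase, had no read in the WKY group and 4.95, 1.42 and 4.4 CPM in the SHR group, at least 13.5-fold higher by a floor of 3 reads per library. Nppb, the gene of brain natriuretic peptide, was at 70.6, 70.8 and 265 CPM against 852, 190 and 1213 CPM, and the groups overlapped on the scale used for the test (log2 fold change 2.29, adjusted p = 0.0803 by edgeR). It passed by DESeq2 (2.28, adjusted p = 0.0451) and without SHR replicate 2 (2.74, adjusted p = 0.0134).

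Calcium channels rose more often than they fell. Of 16 tested 8 were higher and 1 lower (56.2% called). Across the sodium, calcium and pacemaker channels, 9 of 41 were higher, and 5, 4 and 4 were without WKY replicates 1, 2 and 3 and 6 without SHR replicate 1. The T-type channel genes, which open at low voltages and support pacemaking, stood well apart. Cacna1g was at 12.1, 16.6 and 17.8 CPM against 690, 330 and 505 CPM (log2 fold change 4.89, SE 0.32, adjusted p = 0.00149), and Cacna1h was at 8.95, 9.22 and 14 CPM against 126, 74.9 and 130 CPM (3.22, SE 0.27, adjusted p = 0.00245). Cacna1d, the L-type channel of atrial and sinus node cells, stood at 1.79, 2.78 and 2.67 CPM against 79.7, 30.7 and 40 CPM (log2 fold change 4.24, SE 0.43, adjusted p = 0.00405). All 3 SHR libraries lay above all 3 WKY libraries at each of these genes. Cacna1c, the main L-type channel of working muscle, was at 250, 250 and 234 CPM against 176, 238 and 187 CPM (log2 fold change -0.42, adjusted p = 0.104).

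Potassium channels moved both ways, with 7 higher and 6 lower among 45 tested and a median log2 fold change of -0.04. With any 1 WKY library left out, 4 were higher and 1 lower, without SHR replicate 1 there were 5 and 1, without SHR replicate 2 there were 8 and 9, and without SHR replicate 3 there were 6 and 3. Kcnj3 and Kcnj5, the subunits of the acetylcholine-activated channel that slows the atrium, were at 52.9, 51.6 and 41.3 CPM against 291, 134 and 220 CPM (log2 fold change 2.00, adjusted p = 0.0074) and at 69.8, 73.8 and 57.7 CPM against 331, 177 and 246 CPM (1.76, adjusted p = 0.00673). Kcnk2, a stretch-sensitive potassium leak channel, rose by 2.04 on the log2 scale (adjusted p = 0.00703). Kcne1, a beta subunit of the slow delayed rectifier, stood at 3.84, 3.57 and 6.75 CPM against 0.201, 0.473 and 0.135 CPM (log2 fold change -4.25, SE 0.52, adjusted p = 0.00609). Of 10 sodium channel genes only Scn1a was called, at 47.1, 48.8 and 34.1 CPM against 6.82, 13.9 and 23 CPM (log2 fold change -1.72, adjusted p = 0.0282). In calcium cycling, Sln and Itpr1, a calcium release channel of the endoplasmic reticulum, were the only 2 DEGs of 30 tested by edgeR, and DESeq2 called 1 more, lower. Itpr1 was not called with any 1 WKY library or SHR replicate 1 left out, where the list had 1 higher gene, and without SHR replicate 2 the list had 3 higher and 3 lower and without SHR replicate 3 it had 3 higher and 1 lower.

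Among cell junction genes 8 of 62 tested were higher and 4 lower. Gja1, the main connexin of working muscle, was at 748, 813 and 670 CPM against 830, 839 and 994 CPM (log2 fold change 0.12, adjusted p = 0.525). Of 9 connexins and pannexins tested 4 rose, namely Gjd3, Gjc1, Panx1 and Panx2. Panx2, a channel-forming pannexin, was at 17.1, 20 and 9.6 CPM against 86.8, 44.1 and 87.3 CPM (log2 fold change 2.08, adjusted p = 0.0122). Cldn1, an epithelial tight junction protein, stood at 0.682, 0.435 and 0.711 CPM against 14.4, 13.6 and 11.9 CPM (log2 fold change 4.30, SE 0.25, adjusted p = 0.00141). None of the 13 desmosome and adherens junction genes was called by edgeR or by DESeq2, and 5 had an unadjusted p under 0.05. With any 1 WKY library left out, the list had 4 higher and 2 lower genes, without SHR replicate 1 it had 6 and 2, and without SHR replicate 2 it had 11 and 10.

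Epicardial markers moved almost as a block. Of 15 tested 12 rose and none fell, with a median log2 fold change of 2.06, and 4 to 13 were called when a single library was left out (8, 5 and 4 without WKY replicates 1, 2 and 3). The summed level was 116 to 154 CPM in the WKY group and 370 to 782 CPM in the SHR group. Upk1b, a uroplakin of mesothelial cells, stood at 5.29, 3.74 and 3.02 CPM against 27.8, 20.8 and 42.6 CPM (log2 fold change 2.77, SE 0.30, adjusted p = 0.00438). Msln, the mesothelial surface protein mesothelin, stood at 28.3, 28.6 and 16.5 CPM against 90.1, 73.7 and 170 CPM (log2 fold change 2.03, SE 0.33, adjusted p = 0.013). Aldh1a2, the retinoic acid-making enzyme of the epicardium, was at 4.18, 4.61 and 6.49 CPM against 18.5, 10.3 and 37.2 CPM (log2 fold change 1.94, SE 0.44, adjusted p = 0.0294). Wt1, a defining epicardial transcription factor that endothelial cells can also express, did not differ by the test, at 14.2, 16.6 and 21.2 CPM against 13.6, 15.8 and 18 CPM (log2 fold change -0.27, SE 0.18, adjusted p = 0.301). ARNI replicate 2, the treated SHR library with ventricular light chains, lay on the WKY side at all 12 called epicardial genes. Its summed epicardial level was 97.2 CPM, beside 374 to 528 CPM in most treated libraries. ARB replicate 3, which carried both sets of light chains, had 168 CPM.

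**Figure D3:**
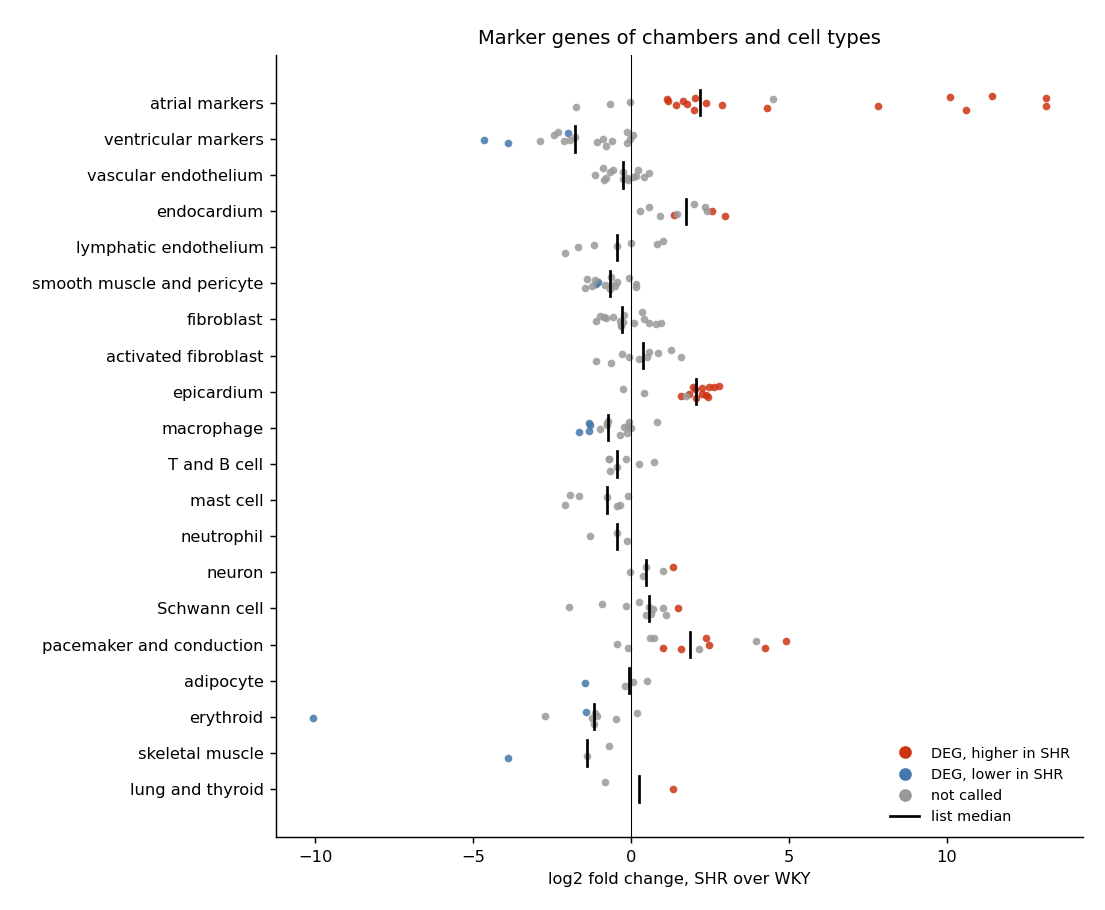
Log2 fold change of SHR over WKY for each tested marker gene of 2 chambers and 18 cell types, with DEGs in colour, other genes in grey and the list median as a black bar. The epicardial, endocardial, pacemaker and atrial medians lie at 2.06, 1.72, 1.86 and 2.19, and the fibroblast and vascular endothelial medians at -0.28 and -0.25.

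All 10 endocardial markers had log2 fold changes above 0 (median 1.72), and 3 were DEGs. Plvap, a protein of endothelial vesicles, stood at 18, 14.3 and 10.1 CPM against 156, 24 and 192 CPM (log2 fold change 2.97, SE 0.70, adjusted p = 0.0315). Cytl1, a secreted endocardial protein, stood at 33.2, 34.6 and 25.6 CPM against 119, 50.4 and 92.3 CPM (log2 fold change 1.34, adjusted p = 0.0253). SHR replicate 2 lay near the WKY libraries here, with a summed level of 684 CPM beside 2014 and 2244 CPM in the other SHR libraries and 426 to 674 CPM in the WKY group. Without it 8 of the 10 were called, and without any other SHR library or WKY library 0 to 2 were.

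Of 12 pacemaker and conduction markers tested 6 were higher and none lower, and 4 were called with any 1 WKY library left out, 5 without SHR replicate 1 and 7 without SHR replicate 2. The called genes included Cacna1g, Cacna1d and Gjd3, and Etv1, a transcription factor of fast-conducting atrial muscle, which stood at 24.3, 23.9 and 13.8 CPM against 149, 62.6 and 143 CPM (log2 fold change 2.37, SE 0.36, adjusted p = 0.0105). Hcn4, Shox2 and Tbx3, which define the node itself, were not called by edgeR with all 6 libraries. Hcn4, the pacemaker channel, was at 35, 35.8 and 26.4 CPM against 55.3, 73.4 and 46.2 CPM (adjusted p = 0.0624). Shox2, a factor of the sinus node and inflow tract, was at 0.426, 0.522 and 0.444 CPM against 1.4, 19.3 and 2.85 CPM, and the groups did not overlap (log2 fold change 3.96, adjusted p = 0.0551). It was higher by DESeq2 (3.98, adjusted p = 0.000324) and without SHR replicate 2 (1.99, adjusted p = 0.0131). Tbx3, a repressor of working muscle genes in the conduction system, was at 9.72, 11.7 and 17.8 CPM against 3.54, 21.6 and 6.16 CPM (log2 fold change -0.44, adjusted p = 0.656), and it was lower without SHR replicate 2 (-1.61, adjusted p = 0.0112). SHR replicate 2 was the highest of the 6 libraries at all 3 of these genes.

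Macrophage markers leaned lower, with 4 of 15 DEGs, none higher and a median log2 fold change of -0.74. Ptprc, the pan-leukocyte antigen CD45, stood at 15.9, 16.6 and 12.5 CPM against 5.22, 3.23 and 7.52 CPM (log2 fold change -1.64, SE 0.27, adjusted p = 0.0131). Cd163 and Mrc1, scavenger receptors of resident macrophages, were at 35.9, 33.3 and 24.1 CPM against 9.96, 9.38 and 22 CPM and at 24.1, 26.2 and 21.5 CPM against 6.89, 7.33 and 17.7 CPM (log2 fold changes -1.33 and -1.32). C1qa, a complement component that macrophages make, was at 38.4, 35.9 and 27 CPM against 31.1, 19 and 52.9 CPM, and the groups overlapped (adjusted p = 0.784). The number of lower macrophage genes was 0 with any 1 WKY library left out, 1 without SHR replicate 1 and 6 without SHR replicate 3. ARNI replicate 2 lay on the SHR side at 3 of the 4, the exception being Cd74, the invariant chain of class II antigen presentation.

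Several cell types showed no DEG in this contrast. None of 15 vascular endothelial markers was called by edgeR, 4 had an unadjusted p under 0.05, and DESeq2 called 1. Pecam1, the endothelial adhesion molecule CD31, was at 152, 148 and 169 CPM against 216, 143 and 214 CPM (log2 fold change 0.15, SE 0.16, adjusted p = 0.517). None of 16 fibroblast markers was called by edgeR or DESeq2 and 3 had an unadjusted p under 0.05, but SHR replicate 3 stood apart, with a summed level of 8984 CPM beside 2511 and 3549 CPM in the other SHR libraries and 4207 to 4873 CPM in the WKY group. Col3a1, the fibrillar collagen of stretchable tissue, was at 574, 534 and 2121 CPM in the 3 SHRs and at 620, 688 and 647 CPM in the WKY libraries (adjusted p = 0.444). Without SHR replicate 3, 5 fibroblast markers were lower in the SHR group. Of 15 smooth muscle and pericyte markers 2 fell, Myh11, smooth muscle myosin, by 1.13 and Kcnj8, a pericyte potassium channel, by 1.04 on the log2 scale. Neither was called without SHR replicate 1 or 3 or with any 1 WKY library left out, where the list had 0 lower genes, and 5 fell without SHR replicate 2. Of 7 lymphatic and 10 activated fibroblast markers edgeR called none, DESeq2 called 1 in each, and 2 in each had an unadjusted p under 0.05.

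Blood and immune cell markers were sparse. Among T and B cell, mast cell and neutrophil markers no DEG was found by edgeR in 7, 7 and 3 genes tested. The number with an unadjusted p under 0.05 was 0, 4 and 0, and DESeq2 called 2 lower mast cell genes. Of 9 erythroid genes tested 2 fell by edgeR and 7 by DESeq2, and the summed level was 1091 to 2245 CPM in the WKY group and 446 to 1155 CPM in the SHR group. Hba-a3, an alpha globin copy, was at 13.1, 6.7 and 10 CPM in the WKY group and had no read in the SHR group, at least 42.1-fold lower, but it shares sequence with other alpha globins and its reads could have been split. The skeletal muscle list fell at Acta1, a gene that heart muscle also expresses, and the neuron and Schwann cell lists each had 1 higher DEG, Prph, a neuronal intermediate filament, and Mbp, a myelin protein. Plin4, a lipid droplet protein that muscle also makes, was the only adipocyte DEG, and Tg, the gene of thyroglobulin, the only lung and thyroid DEG, at 0.682, 0.783 and 0.622 CPM against 2.54, 1.26 and 1.96 CPM. Tg was not called by DESeq2 (adjusted p = 0.0724), and Prph, Mbp, Plin4 and Tg were not called with any 1 WKY library or SHR replicate 1 left out, nor were Mbp, Plin4 and Tg without SHR replicate 3.

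**Figure D4:**
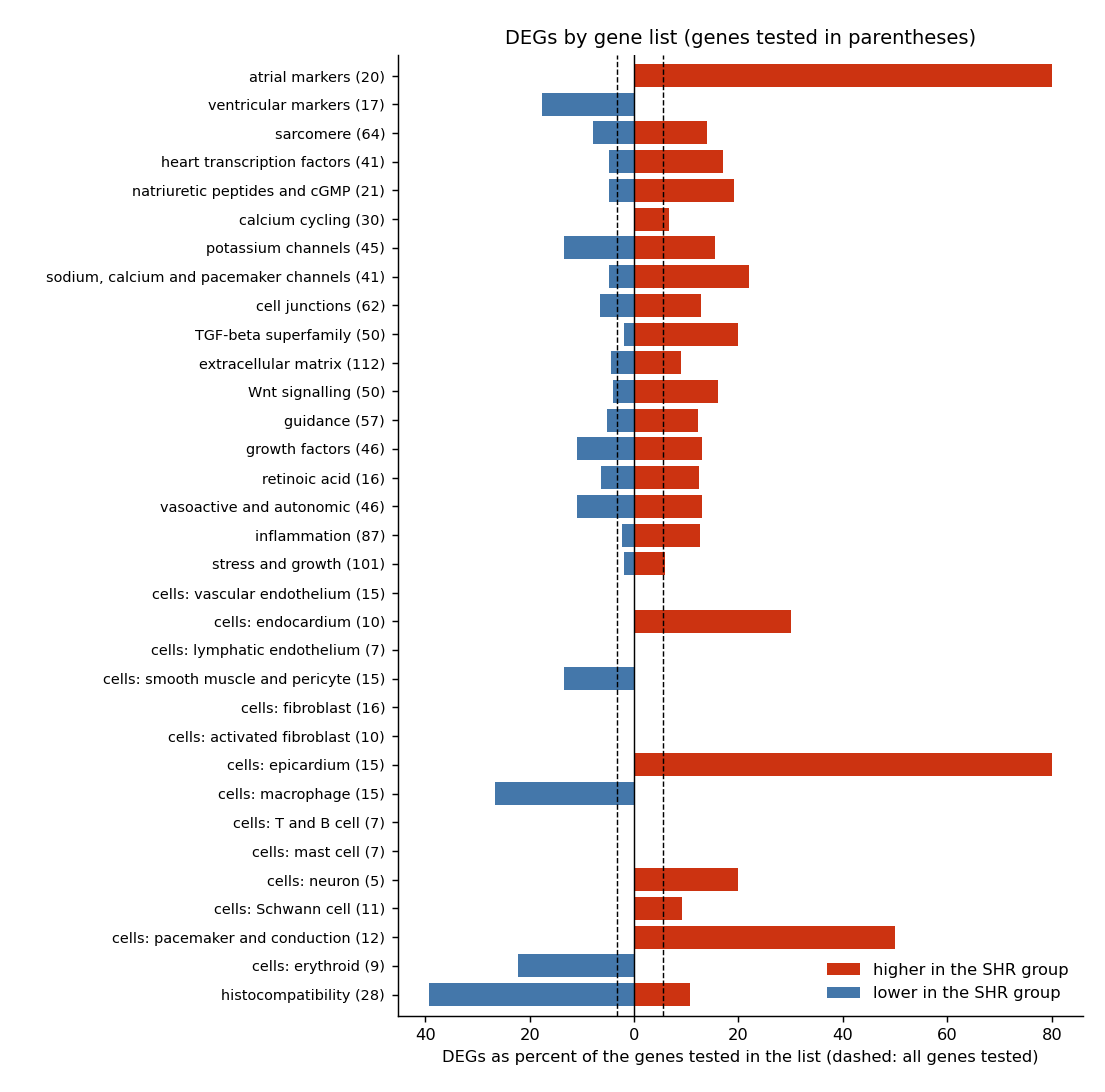
Percent of tested genes in each list that were DEGs, higher in the SHR group to the right and lower to the left, with the number tested in parentheses and dashed lines at the shares over all genes tested (5.54% higher, 3.35% lower). Lists with under 5 tested genes are left out. Atrial and epicardial markers reach 80% higher, histocompatibility genes lean lower, and several cell type lists have no bar.

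In the TGF-beta superfamily 10 of 50 genes tested were higher and 1 lower. Among the ligands, Tgfb2 was called, at 27.3, 26.5 and 32.5 CPM against 89.5, 53.1 and 94.6 CPM (log2 fold change 1.31, SE 0.20, adjusted p = 0.0115). Tgfb1, the ligand most tied to fibrosis, was at 30.7, 32.8 and 36.5 CPM against 28.8, 26.9 and 39.8 CPM (log2 fold change -0.21, SE 0.14, adjusted p = 0.301), and Tgfb3 had a log2 fold change of 0.52 (SE 0.17, adjusted p = 0.0715). The groups overlapped at Tgfb1 and did not at Tgfb2. Bmp5, a bone morphogenetic protein, was at 0.938, 0.783 and 0.444 CPM against 15.9, 3.71 and 13.4 CPM (log2 fold change 3.76, SE 0.61, adjusted p = 0.0125), and Gdf11 fell by 1.77 on the log2 scale. None of 11 receptors was called by edgeR or DESeq2 and 4 had an unadjusted p under 0.05, while Smad6, Smad7 and Id4, inhibitory and target proteins inside the cell, were higher. The number of higher genes in the family was 1, 1 and 2 without WKY replicates 1, 2 and 3, 6 without SHR replicate 1 and 16 without SHR replicate 2. Rac1, a small GTPase of oxidant production that the study names, was at 260, 263 and 257 CPM against 282, 267 and 277 CPM (log2 fold change -0.05, SE 0.09, adjusted p = 0.697, and 0.08 relative to library totals).

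Of 112 extracellular matrix genes tested 10 were higher and 5 lower (13.4%). Among 40 proteases and inhibitors 7 rose and 2 fell. Adamtsl2, a secreted regulator of microfibrils, stood at 11.4, 8.26 and 9.78 CPM against 107, 42.3 and 100 CPM (log2 fold change 2.93, SE 0.35, adjusted p = 0.00567). Adamts8, a secreted protease, stood at 0.682, 0.522 and 0.8 CPM against 8.83, 6.7 and 88.2 CPM (log2 fold change 5.48, SE 1.26, adjusted p = 0.0296), with SHR replicate 3 far above the other libraries. Timp4, an inhibitor of matrix metalloproteases abundant in heart, stood at 67.2, 49.3 and 48 CPM against 10.7, 31.8 and 14.9 CPM (log2 fold change -1.64, SE 0.42, adjusted p = 0.0391). The summed level of 11 fibrillar collagens was 1274 to 1393 CPM in the WKY group and 1174, 1050 and 3997 CPM in the 3 SHRs. Without SHR replicate 3 the matrix list had 7 higher and 18 lower genes, and without SHR replicate 2 it had 22 higher and 6 lower. Without WKY replicates 1, 2 and 3 the higher genes numbered 3, 2 and 2, and without SHR replicate 1 there were 6.

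Wnt signalling genes showed 8 higher and 2 lower of 50 tested. Sfrp1 and Frzb, secreted antagonists that bind Wnt ligands, were at 15, 14.1 and 13.7 CPM against 62.1, 54.7 and 229 CPM (log2 fold change 2.84, adjusted p = 0.0196) and at 2.98, 1.65 and 1.24 CPM against 12.1, 5.05 and 27.7 CPM (2.75, adjusted p = 0.0301). Ror1, a Wnt receptor kinase, rose by 2.11 on the log2 scale. Wnt5b, a ligand, fell by 2.34, from 3.92, 3.65 and 3.29 CPM to 0.401, 1.34 and 0.61 CPM, and Tcf7, a transcription factor of the pathway, fell by 1.61. With any 1 WKY library left out, 1 Wnt gene was higher, without SHR replicate 1 there were 4, and without SHR replicate 2 the lower genes numbered 7.

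Guidance genes, first described in growing nerves and vessels, had 7 higher and 3 lower of 57 tested. Epha4, an ephrin receptor, was at 6.99, 6.09 and 7.82 CPM against 338, 165 and 374 CPM (log2 fold change 5.24, SE 0.33, adjusted p = 0.00149). Sema3a, a repellent of sympathetic nerves, was at 4.35, 4.17 and 2.49 CPM against 36.6, 20.1 and 37.4 CPM (log2 fold change 2.95, SE 0.29, adjusted p = 0.00379). The groups were far apart at both. Nrp2, a receptor for semaphorins and vascular growth factors, was at 39.9, 38.9 and 44.1 CPM against 10.7, 18 and 17.6 CPM (log2 fold change -1.54, adjusted p = 0.00764). With any 1 WKY library left out, 3 guidance genes were higher and 1 lower, without SHR replicate 1 there were 4 and 1, and without SHR replicate 2 there were 9 and 9.

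Growth factors and their receptors moved both ways, with 6 higher and 5 lower of 46 tested. Tgfa, a ligand of the epidermal growth factor receptor, stood at 1.36, 1.22 and 0.978 CPM against 19.3, 10.8 and 17.9 CPM (log2 fold change 3.60, SE 0.27, adjusted p = 0.00187), and Erbb2 and Erbb4, receptors in the neuregulin pathway, rose by 1.77 and 1.57 on the log2 scale. Lower genes included Angptl4, an inhibitor of lipoprotein lipase, and Notch4, an endothelial Notch receptor, at log2 fold changes of -2.17 and -1.30. None of the lower calls was made without SHR replicate 1 or with any 1 WKY library left out, and the higher calls became 2, 1 and 1 without WKY replicates 1, 2 and 3, 2 without SHR replicate 1 and 9 without SHR replicate 2. Among 16 retinoic acid genes 2 rose, Aldh1a2 and Rdh10, both on the synthesis side. Aldh1a1, another retinaldehyde dehydrogenase, fell by 1.02 on the log2 scale (adjusted p = 0.0141), from 164, 145 and 110 CPM to 75, 60.9 and 91.5 CPM. None of 8 retinoic acid receptors was called by edgeR or DESeq2, and 5 had an unadjusted p under 0.05. Without WKY replicates 1, 2 and 3 the higher genes of the list numbered 1, 0 and 0, without SHR replicate 1 there was 1, and without SHR replicate 2 there were 5.

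Vasoactive and autonomic genes had 6 higher and 5 lower of 46 tested. None of 7 renin-angiotensin genes was called by edgeR or DESeq2, and 2 had an unadjusted p under 0.05. With 8.89% of all genes tested called, a list of 7 without a call is near that share. Edn1, which encodes the vasoconstrictor endothelin, was at 1.11, 2.17 and 1.69 CPM against 5.08, 3.39 and 8.6 CPM (log2 fold change 1.62, SE 0.39, adjusted p = 0.0342). Adm, the vasodilator adrenomedullin, rose by 1.49 on the log2 scale (adjusted p = 0.0126), and Calcrl, a receptor subunit for it, fell by 1.14 (adjusted p = 0.00332). Apln, the peptide apelin, was at 37, 31.3 and 37.5 CPM against 5.88, 20.5 and 9.15 CPM (log2 fold change -1.70, adjusted p = 0.0425). The 6 higher calls fell to 0, 2 and 1 without WKY replicates 1, 2 and 3 and to 2 without SHR replicate 1 or 3. The 5 lower calls became 1 with any 1 WKY library left out, 2 without SHR replicate 1 or 3 and 11 without SHR replicate 2.

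Inflammation genes had 11 higher and 2 lower of 87 tested (14.9%). Ifit1, an interferon-induced RNA-binding protein, was at 0.0852, 0.174 and 0.178 CPM against 33.8, 15.5 and 34.3 CPM (log2 fold change 7.35, SE 0.48, adjusted p = 0.00149), while Rsad2, another interferon-induced gene, fell by 1.44. Of 20 interferon response genes these were the only 2 called, and they moved in opposite directions. C4a, a complement component, was at 57.4, 49.7 and 37.2 CPM against 246, 177 and 427 CPM (log2 fold change 2.40, SE 0.31, adjusted p = 0.00696). Vcam1, an adhesion molecule for leukocytes, was at 12.3, 13.7 and 8.89 CPM against 57.5, 21.2 and 101 CPM (adjusted p = 0.0293). The 11 higher calls became 3, 2 and 2 without WKY replicates 1, 2 and 3 and 3 without SHR replicate 1, and the lower calls became 9 without SHR replicate 3.

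The histocompatibility genes, which present antigen and differ between inbred rat strains, were DEGs at 14 of 28 tested (3 higher, 11 lower). The lower calls became 5, 4 and 4 without WKY replicates 1, 2 and 3 and 6 without SHR replicate 1. RT1-A1, a classical class I gene, stood at 112, 103 and 115 CPM against 400, 299 and 484 CPM (log2 fold change 1.70, SE 0.16, adjusted p = 0.00317). RT1-CE10, another class I gene, stood at 90.1, 93.7 and 91.2 CPM against 29.5, 22.7 and 39 CPM (log2 fold change -1.74, SE 0.16, adjusted p = 0.00316). All 6 treated SHR libraries lay on the SHR side at both, ARNI replicate 2 included. RT1-Bb and RT1-Ba, the chains of a class II molecule, were at 44.3, 63.4 and 36.3 CPM against 6.42, 5.52 and 8.26 CPM (log2 fold change -2.97, adjusted p = 0.00205) and at 38.4, 51 and 27.2 CPM against 11, 9.7 and 9.82 CPM (-2.06, adjusted p = 0.00471). Of the 6 treated SHR libraries, 2 lay on the SHR side at RT1-Bb and 1 at RT1-Ba, and ARNI replicate 2 lay between the groups at both. Ciita, the regulator of class II genes, fell by 1.35 on the log2 scale. Members of this family are near-identical and vary between strains, so reads aligned to a single reference could be split or lost, and single members are uncertain.

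Stress and growth genes lay near the background, with 8 of 101 called (7.92%). Of 23 early response genes tested none was a DEG by edgeR, 1 was by DESeq2 and 7 had an unadjusted p under 0.05, but their summed level was 6966 CPM in SHR replicate 3 and 1021 to 1378 CPM in the other 5 libraries. Fos, a subunit of the AP-1 transcription factor, was at 23.2, 21.1 and 635 CPM in the 3 SHRs and at 27.1, 13.6 and 13.9 CPM in the WKY libraries (adjusted p = 0.112). SHR replicate 3 therefore stood apart in early response, fibroblast and fibrillar collagen genes together. The fibroblast markers include fibrillar collagens such as Col3a1, so the sums of those lists share members. None of 24 cell division genes was called by edgeR or DESeq2, and 4 had an unadjusted p under 0.05. The 6 higher calls of the whole list became 1, 2 and 1 without WKY replicates 1, 2 and 3 and 18 without SHR replicate 2, and the 2 lower calls became 7 without SHR replicate 3. Mt1, a metal-binding metallothionein, was at 8.78, 3.22 and 5.87 CPM against 37.2, 45.2 and 39.1 CPM (log2 fold change 2.63, SE 0.33, adjusted p = 0.00662), and Dbp, an output gene of the circadian clock, at 54.3, 41.5 and 44.8 CPM against 259, 159 and 119 CPM (log2 fold change 1.81, SE 0.30, adjusted p = 0.0138).

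Outside the lists, the genes furthest apart were often at 0 in a whole group. Atp1b4, a muscle protein related to the sodium pump beta subunits, had no read in the WKY group and 131, 59.2 and 95.9 CPM in the SHR group, at least 358-fold higher. Rab15, a small GTPase of vesicle traffic, was at 0.341, 0 and 0.178 CPM against 306, 91.1 and 239 CPM (log2 fold change 10.03, SE 0.76, adjusted p = 0.00187). Among lower genes, Mettl24, a predicted methyltransferase, was at 3.58, 3.3 and 3.02 CPM in the WKY group with no read in the SHR group, at least 14-fold lower. Rims1, a scaffold of neurotransmitter release, was at 15.9, 17.9 and 19.8 CPM against 3 reads in the whole SHR group, a ratio of 252 (95% exact interval 85.8 to 1226, counting error only).

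The treated SHR libraries lay at different distances from the WKY group. A treated library was placed on the SHR side where its level reached the range of the 3 SHR libraries and on the WKY side where it reached that of the WKY libraries. ARB replicates 1 and 2, with atrial light chains, lay on the SHR side at 90.2% and 93.5% of the 764 higher DEGs. The share was 45.7% for ARB replicate 3, which carried both sets, and 86.8% and 73.7% for ARNI replicates 1 and 3. ARNI replicate 2 lay on the SHR side at 65 genes (8.51%), between the groups at 241 and on the WKY side at 458 (59.9%). At the 462 lower DEGs it lay on the SHR side at 102, between at 220 and on the WKY side at 140 (30.3%). This is a description of 1 library, which differs from the WKY libraries in strain and in treatment.

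**Figure D5:**
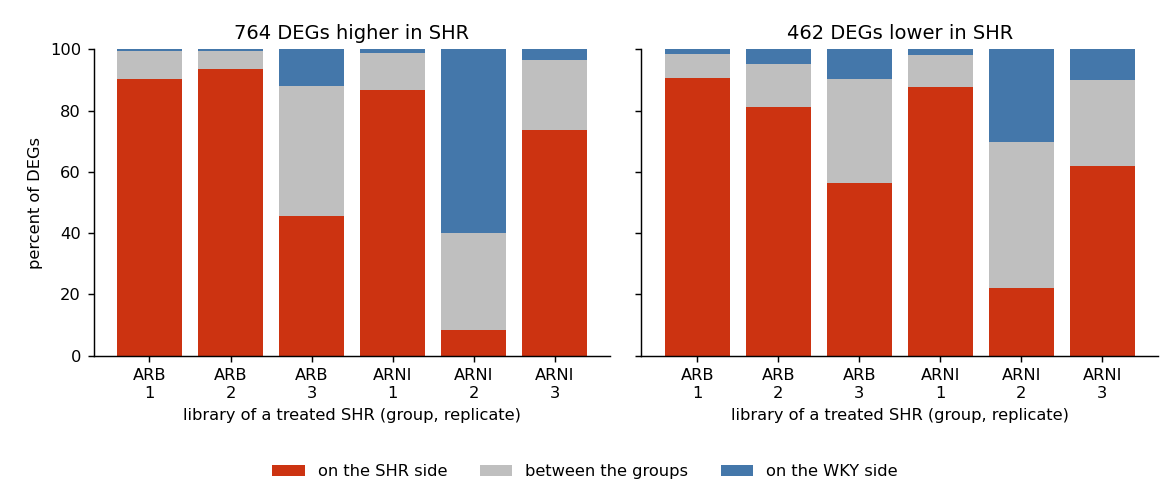
Percent of the 764 higher and 462 lower DEGs at which each of the 6 treated SHR libraries lies on the SHR side, between the groups or on the WKY side. ARNI replicate 2 reaches the WKY side at 59.9% of the higher DEGs, beside 0.524% for ARB replicate 1.

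All 6 treated libraries lay on the SHR side at 28 of the higher DEGs (3.66%) and 29 of the lower DEGs (6.28%). Ndufa10l1, a relative of a mitochondrial complex I subunit, had no WKY read and 60.9, 101 and 54.1 CPM in the 3 SHRs, at least 270-fold higher, with 119 CPM in ARNI replicate 2. Uap1l2, a relative of an enzyme of amino sugar synthesis, and H2bc12, a histone H2B gene, had no read in the SHR group or in ARNI replicate 2, and were at 1.88, 2.61 and 2.13 CPM and at 1.45, 1.74 and 1.51 CPM in the WKY libraries. Ndufa10l1 and H2bc12 resemble other genes of their families, so reads could have been split and these levels are uncertain.

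Cbr1, a carbonyl reductase, had 1 read in the WKY group and 10.9, 14.6 and 8.4 CPM in the SHR group, and Cbr3, its neighbour and relative, had none against 1.27, 3.31 and 2.51 CPM. Setd4, a methyltransferase gene that neighbours Cbr1 in the RefSeq annotation of GRCr8, had 1 read in the WKY group and 8.49, 8.67 and 10.2 CPM in the SHR group. ARNI replicate 2 lay on the SHR side at Cbr1 and Cbr3, with 12 and 2.44 CPM, and between the groups at Setd4, with 7.39 CPM. The ratio of the SHR to the WKY group was 384 for Cbr1 (95% exact interval 68.6 to 15194) and 315 for Setd4 (56.2 to 12463), counting error only. Cbr1 and Cbr3 are similar in sequence and their reads could have been split.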

How the data were processed

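RNA of the left atrium was sequenced as 12 libraries, of which the 3 SHR and 3 WKY saline libraries were compared. The authors filtered reads (SOAPnuke 1.5.2), aligned them to Rnor_6.0 (HISAT2 2.0.4, Bowtie2 2.2.5) and deposited expected counts per gene (RSEM 1.2.12), listing 37246 genes, 21239 of them with reads in the table. Of these expected counts 23.2% were not whole (tolerance 1e-06) and all were rounded. The deposited log2 ratios and p-values of the authors' own comparison, 2 columns, were not used. Totals ran from 11252361 to 14953507 reads, and intervals and floors (3 reads per library) cover counting error only.

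Genes were kept by filterByExpr, scaled by TMM and tested with edgeR 4.0.16 (quasi-likelihood, two-sided, R 4.3.3, tested on simulated data), with Benjamini-Hochberg adjustment over all 13794 genes. The simulated data had the same dispersion in both groups. The SHR libraries differed more among themselves than the WKY libraries did, and that unequal spread was not simulated. DESeq2 1.42.0, other scalings, no filter, a replicate block, all 12 libraries and each library left out were alternatives. Overlap of groups was read on the TMM scale, printed levels are CPM by library totals, and group lists hold 1244 genes in 38 lists. The members and lists were chosen with earlier results of these data known.

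The named genes were the 4 light chains, up to 4 DEGs per list and direction by fold change, up to 8 per direction outside the lists, up to 10 per direction with ARNI replicate 2 on the SHR side, and Tgfb1, Tgfb2, Tgfb3 and Rac1. Chosen after their values were seen were Shox2, Irx4, Hey2, Nppb, Fos, Fosb, Col1a1, Col3a1, Dcn, Stard10, Kcnj5, Msln, Pam, Pecam1, Hcn4, Cbr1, Cbr3, Tbx3, Wt1, Myh6, Setd4, Gja1, Gja5, Nkx2-5, Kcna5, Hey1, Gjc1, Panx1, Panx2, Cacna1c, Nr2f1, C1qa, Smad6, Smad7 and Ciita. Some results are not reported here.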

Additional observations from a re-analysis of the deposited data

How the results depend on the processing

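The replicate numbers gave no sign of pairing, but with 3 libraries per group this check could miss it. Same-numbered libraries correlated at 0.024, -0.070 and -0.100 in their deviations from the group means, and differently numbered ones at -0.040 to 0.104. With a replicate block there were 681 DEGs (461 higher, 220 lower), 121 of them on the gene lists. With all 12 libraries in the fit there were 579 (399 higher, 180 lower), 72 on the lists, and DESeq2 called 713 lower genes. Leaving out 1 library gave 348 to 2205 DEGs, 253 to 1109 higher and 95 to 1096 lower, and 60 to 327 on the lists. With TMM effective library sizes the WKY mean was 3857 CPM for Myl2 and 7659 CPM for Myl3, and by library totals ARNI replicate 2 lay on the SHR side at 42 higher DEGs. None of the 171 named genes that were called changed direction under these alternatives (170 could be compared by DESeq2). Since the groups did not overlap at any DEG, leaving out 1 library could hardly reverse a sign. Of the 171, 93, 99 and 96 were no longer called without WKY replicates 1, 2 and 3. The number lost was 63, 2 and 30 without SHR replicates 1, 2 and 3. It was 91 with all 12 libraries and 60 with a replicate block. Named genes that were not called in the main fit changed direction as follows. Leaving out 1 library gave log2 fold changes of -0.52 to 0.13 for C1qa, -0.01 to 1.06 for Col1a1, -0.33 to 0.84 for Col3a1, -0.59 to 0.02 for Dcn, -1.13 to 4.69 for Fosb and -0.49 to 0.32 for Gja5, and those of Col1a1, Col3a1 and Fosb were below 0 only without SHR replicate 3. By library totals the value was 0.03 for C1qa, 0.08 for Gja5 and 0.08 for Rac1. The cause was not tested.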

Other observations

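Stard10, a lipid transfer protein, stood at 17, 17.4 and 19.1 CPM in the WKY libraries and at 582, 221 and 370 CPM in the 3 SHRs (log2 fold change 4.31, SE 0.36, adjusted p = 0.00245 by edgeR's quasi-likelihood test). Sbk3, a kinase gene, stood at 0.938, 0.783 and 0.267 CPM against 438, 196 and 265 CPM (log2 fold change 8.66, SE 0.50, adjusted p = 0.00141). The groups did not overlap at either gene. Stard10 was chosen after its values were seen.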
